A study of Mus musculus with 2 samples.

Results

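The interferon regulatory factors are a family of transcription factors, and 8 of their genes were followed here in mouse dendritic cells: Irf1, Irf2, Irf3, Irf4, Irf5, Irf7, Irf8 and Irf9. The genes were found through the array's platform annotation, by taking each probe set that it assigns to exactly 1 gene symbol when that symbol is 1 of the 8. This gave 8 probe sets for 7 genes, with 2 probe sets for Irf8, out of 22180 genes measured in all. Irf5 had no probe set of its own, because its probe set 17456692 is also annotated to a second gene, Tnpo3.

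RNA came from 2 cultures of dendritic cells grown from mouse bone marrow, labelled GMDC. One culture was given conditioned medium of the mouse mammary tumour line E0771, whose cells had first been exposed to topotecan, a drug that blocks topoisomerase I; the other culture is labelled as the control and nothing more. The labels give no mouse strain, age, sex or genotype, no topotecan dose and no culture time, and they do not say which medium the control cells had, so topotecan treatment of the tumour cells and tumour-conditioned medium as such cannot be told apart. Each culture was measured on 1 array, which leaves every value below without a replicate error and allows no test.

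Interferon regulatory factors share a DNA-binding domain with conserved tryptophans and recognise the interferon-stimulated response element. IRF3 and IRF7 are phosphorylated downstream of nucleic acid sensors and drive the interferon genes, and IRF9 works with STAT2 in the complex ISGF3, which carries the signal of the interferon receptor to the nucleus. IRF1 activates and IRF2 can restrain interferon-responsive genes, IRF5 serves Toll-like receptor signalling to cytokine genes, and IRF4 and IRF8 shape the development of dendritic cells.

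Most of the family was higher with conditioned medium. Of the 7 measured genes, 4 (Irf7, Irf1, Irf4 and Irf9) had at least a 2-fold higher signal, 0 passed 2-fold downward and 3 (Irf2, Irf3 and Irf8) passed it in neither direction. Of all 13712 genes that passed the filter on low signal, 8.63% passed 2-fold upward and 6.84% downward. At 1.5-fold the members' counts were 5 upward and 1 downward, beside 16.6% and 17.9% of all genes. The 1 downward was Irf8 by its brighter probe set, and its other probe set was 1.17-fold lower. At 3-fold the members' counts were 3 and 0, beside 4.14% and 2.11%. A gene passed when the higher of its 2 log2 values reached 4.10, the median of all values on both arrays, and all 7 members passed, each with both of its values above that level. The median log2 difference, conditioned medium minus control, was 1.41 over the 7 genes and -0.07 over all genes that passed; 6 of the 7 differences were above 0, against 44.2% of all genes that passed.

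**Figure D1:**
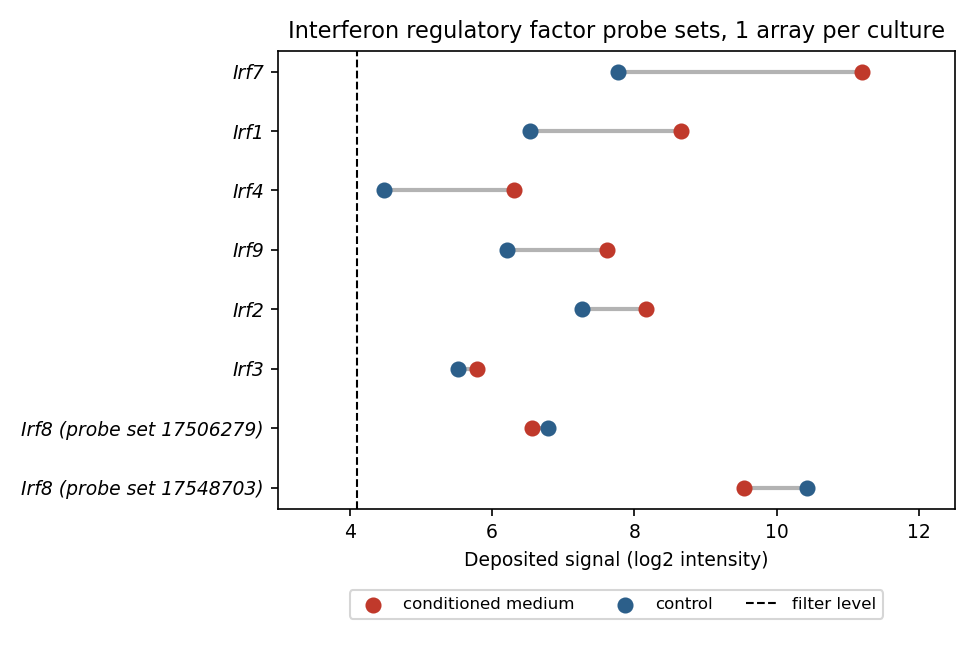
Deposited log2 intensity (horizontal axis) of the 8 family probe sets, 1 array per culture, with red points for conditioned medium, blue points for control and a dashed line at the filter level of 4.10. Irf7 spans the widest gap, 11.19 against 7.78, and both Irf8 probe sets lie lower with conditioned medium.

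The pair that turns on interferon genes was split. Irf7, which amplifies the interferon response and is itself interferon-inducible, had a log2 intensity of 11.19 with conditioned medium and 7.78 in the control, a ratio of 10.7. It was the highest difference of the family and ranked 107th of 13712 genes, in the upper 0.780%. Irf3, which is present in most resting cells and is regulated mainly by phosphorylation, had values of 5.78 with conditioned medium and 5.53 in the control (1.19-fold). The Irf3 difference of 0.25 ranked 4062nd, inside the bulk of all genes, and the difference of Irf7 was 3.16 above it on the log2 scale.

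Irf9, the DNA-binding subunit of ISGF3, was 2.65-fold higher, with log2 intensities of 7.62 with conditioned medium and 6.21 in the control. Its difference of 1.41 was the smallest of the 4 past 2-fold and ranked 699th. Its partner gene Stat2 was 4.54-fold higher (7.37 with conditioned medium and 5.19 in the control).

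Irf1, an activator of antigen presentation and antiviral genes, had log2 intensities of 8.66 with conditioned medium and 6.53 in the control, a ratio of 4.37 that ranked 332nd. Irf2, which binds the same elements and can compete with IRF1, was 1.87-fold higher, with 8.17 with conditioned medium and 7.26 in the control. Irf2 stood just under the size rule, with a log2 difference of 0.90 where 2-fold is 1, and ranked 1380th. With a level-dependent loess correction between the arrays it was 1.01, which would make 5 members past 2-fold. The difference of Irf1 was 1.23 larger than that of Irf2, so both genes were higher and by unequal amounts.

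The factors tied to dendritic cell subsets went opposite ways. Irf4, used by type 2 conventional dendritic cells and by GM-CSF-grown cells, was 3.55-fold higher, with log2 intensities of 6.30 with conditioned medium and 4.48 in the control. The control value stood 0.38 above the filter level, which is a median of all values and not a detection limit. Whether that value exceeds background is not known, as no detection calls were used. The Irf4 difference ranked 456th. Irf8, required for type 1 conventional dendritic cells and for monocyte development, was lower on both of its probe sets. Probe set 17548703, the brighter, had 9.54 with conditioned medium and 10.42 in the control (1.85-fold lower, log2 difference -0.88). Probe set 17506279 had 6.56 with conditioned medium and 6.79 in the control (log2 difference -0.23).

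The 2 Irf8 probe sets thus shared a sign and differed in size by 0.66 on the log2 scale, and neither reached 2-fold. Their levels stood 2.98 apart with conditioned medium and 3.63 apart in the control. Counted from the lowest difference, Irf8 by its brighter probe set ranked 1239th of 13712 genes, in the lower 9.04%. Irf4 and Irf8, by that probe set, differed by 2.71 in their log2 differences. In RNA of whole cultures, fewer cells of a type and less RNA per cell cannot be told apart.

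The only error available for these values comes from genes measured by several probe sets. Over 652 such genes above the filter, the differences of probe sets of the same gene had a pooled SD of 0.46 (787 degrees of freedom). The differences of Irf7, Irf1, Irf4 and Irf9 exceeded that SD at least 3-fold, and those of Irf2 and of the brighter Irf8 probe set by less. Those of Irf3 and of the other Irf8 probe set (-0.23) were smaller in size than the SD. This SD contains no variation between cultures, animals or RNA preparations.

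**Figure D2:**
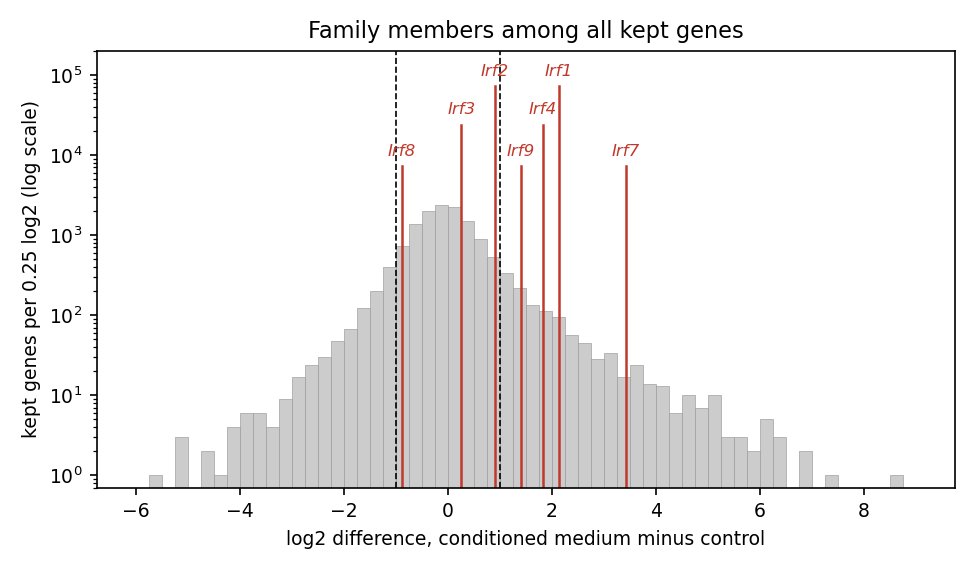
Number of genes that passed the filter (vertical axis, log scale) per 0.25 of log2 difference, conditioned medium minus control (horizontal axis), with red lines at the 7 family genes and dashed lines at 2-fold. Irf7 at 3.42 lies in the thin upper tail, and Irf3 at 0.25 and Irf8 at -0.88 lie between the dashed lines.

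Start-site sequences were read for the family because most members were higher together. RefSeq (GRCm38.p6) gave 11 windows of the 250 bases before an annotated transcription start, with 2 starts each for Irf1, Irf8 and Irf9 and 1 for each of the other 5 genes. Searched on both strands, the interferon-stimulated response element, searched as GAAA, any 2 bases and GAAA again, was found before Irf2 and no other member, and 2.98% of all 32851 windows of this length hold it. The STAT-binding GAS element, written TTCNNNGAA, which reads the same on both strands, was found before Irf1, Irf2 and Irf8, and in 7.02% of all windows. The NF-kB consensus was found before Irf1 and Irf2, and in 3.90% of all windows. No 2 matches overlapped. A match is a string of letters and not a shown binding site, and a window without one says nothing about sites elsewhere. The windows of the members with matches are shown, followed by that of Irf7, the member with the highest difference, which held none of the 3 motifs; capitals mark the matches.
Irf1, chr11:53769764-53770013, plus strand: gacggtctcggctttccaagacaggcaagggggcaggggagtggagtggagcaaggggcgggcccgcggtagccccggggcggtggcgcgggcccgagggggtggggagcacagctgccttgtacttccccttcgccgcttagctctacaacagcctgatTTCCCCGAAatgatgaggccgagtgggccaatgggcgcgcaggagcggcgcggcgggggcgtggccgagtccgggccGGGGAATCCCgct
Irf2, chr8:46739495-46739744, plus strand: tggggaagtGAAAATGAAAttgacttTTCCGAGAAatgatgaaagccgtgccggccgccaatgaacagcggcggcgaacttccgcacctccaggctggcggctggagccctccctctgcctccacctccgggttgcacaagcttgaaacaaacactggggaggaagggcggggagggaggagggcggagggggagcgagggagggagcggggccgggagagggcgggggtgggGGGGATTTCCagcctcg
Irf8, chr8:120736108-120736357, plus strand: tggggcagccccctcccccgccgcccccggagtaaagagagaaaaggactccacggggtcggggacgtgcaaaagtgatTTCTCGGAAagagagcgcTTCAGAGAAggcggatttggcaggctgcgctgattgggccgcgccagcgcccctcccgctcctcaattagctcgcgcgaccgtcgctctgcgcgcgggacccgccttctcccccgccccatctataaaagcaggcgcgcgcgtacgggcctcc
Irf7, chr7:141266425-141266674, minus strand: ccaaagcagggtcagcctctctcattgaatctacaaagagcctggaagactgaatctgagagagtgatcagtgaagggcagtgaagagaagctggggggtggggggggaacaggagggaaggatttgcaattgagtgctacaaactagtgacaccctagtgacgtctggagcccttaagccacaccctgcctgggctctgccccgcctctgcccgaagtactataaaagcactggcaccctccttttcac

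In the Irf1 window the GAS match TTCCCCGAA lies 90 to 82 bases before the start and the NF-kB match GGGGAATCCC 13 to 4 bases before it. In the Irf2 window the response element GAAAATGAAA lies 241 to 232 bases, the GAS match TTCCGAGAA 224 to 216 bases and the NF-kB match GGGGATTTCC 17 to 8 bases before the start. Irf8, the member with the lowest difference, has 2 GAS matches, TTCTCGGAA at 171 to 163 bases and TTCAGAGAA at 153 to 145 bases. Of the 4 genes past 2-fold, Irf1 had matches, and none was found in the windows of Irf4, Irf7 or Irf9. The Irf7 window had a GC content of 54.4% and 3 CpG dinucleotides, whereas the Irf8 window shown had 67.2% and 29. The window of the other Irf8 start had 54% and 8, and the median GC content of all windows was 52.4%.

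**Figure D3:**
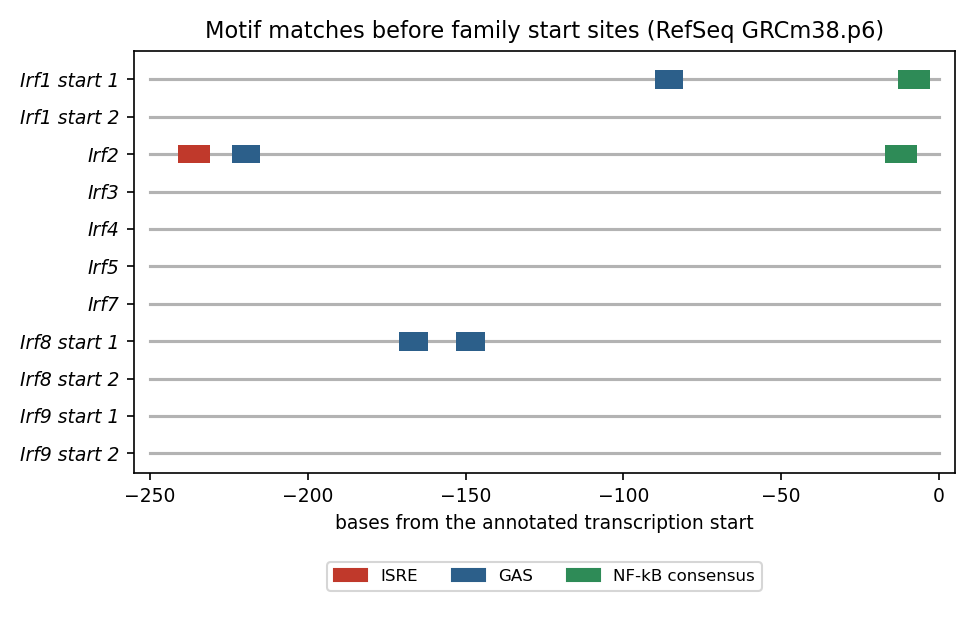
Matches to the 3 motifs in the 250 bases before each annotated start site of the 8 family genes (horizontal axis, bases from the start; 1 line per start site; bars span the matched bases). Matches lie before 1 start site each of Irf1, Irf2 and Irf8, and the windows of the other genes are empty.

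The genes around the family were described through 10 lists ordered by their place in the pathway. Together the lists had 148 genes that passed the filter, of which 74 passed 2-fold upward and 4 downward, beside 8.63% and 6.84% of all genes. The lists were chosen knowing earlier results, so their counts are descriptions.

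Upstream of IRF3, IRF5 and IRF7, 9 of 25 sensors, adaptors and kinases passed 2-fold upward and 0 downward, and their median log2 difference was 0.39, or 0.99 with the filter at the 75th percentile of all values. The double-stranded RNA receptor gene Tlr3 (2.65, or 2.29 when its control value is raised to the filter level) and the nucleic acid sensor gene Zbp1 (2.33) differed most. Irak1, a kinase of Toll-like receptor signalling (-0.86), and Ticam1, the adaptor of TLR3 (-0.55), were at the low end. The kinases that phosphorylate IRF3 and IRF7 were unlike each other: Ikbke was at 7.14 with conditioned medium and 6.14 in the control (1.99-fold), and Tbk1 at 7.27 with conditioned medium and 7.59 in the control (log2 difference -0.32). In the receptor, Janus kinase and STAT list all 9 genes had differences above 0, 3 passed 2-fold upward and 0 downward, and the median was 0.75. Stat2 (2.18) and the interferon receptor chain Ifnar2 (1.10) led it, and Ifngr2 (0.15), a chain of the interferon-gamma receptor, and Jak1 (0.36), a kinase shared by both receptors, came last.

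Downstream, the lists of IRF3 and IRF7, ISGF3, IRF1 and IRF5 genes had higher medians than both lists above. The IRF8 and IRF4 lists, given after them, had medians of 0.69 and -0.17. Of 12 early genes that respond to IRF3 and IRF7, 10 passed 2-fold upward and 0 downward, and the median log2 difference was 2.70. Ifnb1, the interferon beta gene, had 10.73 with conditioned medium and 2.19 in the control, a log2 difference of 8.54, or 6.63 against the filter level. The chemokine gene Cxcl11 followed (6.43), while Zc3hav1, an antiviral RNA-binding protein gene, differed by 0.38. The interferon alpha gene Ifna4, a known early interferon alpha in mouse cells, had 5.35 with conditioned medium and 5.46 in the control (log2 difference -0.11), close to level.

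Of 18 target genes of ISGF3, 14 passed 2-fold upward and 0 downward, all 18 differences were above 0 and the median was 1.82. Rsad2, the viperin gene (5.24), and the nucleotide kinase gene Cmpk2 (4.45) led, and Oas3, an oligoadenylate synthetase gene (0.58), and Trim25, a ubiquitin ligase of RIG-I signalling (0.74), came last. Of 23 IRF1 targets, 16 passed 2-fold upward and 0 downward, and the median was 1.61. As deposited, Ido1, the gene of an enzyme of tryptophan breakdown (5.54), and the chemokine gene Cxcl9 (5.42) were highest; the control value of Ido1 lay under the filter level, and against that level Ido1 (4.63) came after Cxcl9 and the cytokine gene Il27 (4.94). Lowest were the cytokine genes Il15 (-0.21) and Il12a (-0.01). Of 10 cytokine genes linked to IRF5, 8 passed 2-fold upward and 0 downward (median 2.21), from Il6 (7.40) and Il1a (3.76) down to Cxcl1 (0.96) and Il12b (0.84).

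The lists tied to dendritic cell subsets held genes past 2-fold in both directions. Among 9 genes of IRF8 and type 1 conventional dendritic cells, 4 passed 2-fold upward and 1 downward (median 0.69). Batf3, the IRF8 partner gene that type 1 cells need, had 5.27 with conditioned medium and 7.30 in the control, 4.08-fold lower. Wdfy4, which type 1 cells use for cross-presentation, was next lowest (-0.52), and Tlr11 and the transcription factor gene Nfil3 (1.57) were highest. Tlr11 was 8.22-fold higher as deposited and 3.99-fold higher against the filter level. The median of this list was 0.16 with values under the filter level raised to it, and 1.41 with the filter at the 75th percentile. Among 13 genes of IRF4 and type 2 conventional dendritic cells, 3 passed 2-fold upward and 3 downward (median -0.17). Klf4, a transcription factor gene of type 2 cells (3.39), and the peptidase gene Dpp4 (2.25) were highest, and the lectin gene Clec10a (-2.01) and the chemokine gene Ccl17 (-1.81, or -1.57 against the filter level) lowest.

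Most genes in the list of DNA-binding partners and cofactors differed little, but the partner genes Stat2 (2.18) and Batf3 (-2.03) were counted in other lists. Of the 16 genes in this list, 1 passed 2-fold upward and 0 downward, and the median was 0.20. The exception was Batf2 (2.31), an interferon-inducible relative of BATF known to pair with IRF1, with 8.27 with conditioned medium and 5.96 in the control. Jund, an AP-1 gene, followed (0.73). Spi1, the gene of PU.1, which recruits IRF4 and IRF8 to DNA, was lowest (7.66 with conditioned medium and 8.12 in the control), and Batf, whose product also pairs with IRF4 and IRF8, was next (-0.35). Spib, a relative of Spi1, lay under the filter level on both arrays (3.42 with conditioned medium and 3.18 in the control). Of 13 negative regulators, 6 passed 2-fold upward and 0 downward (median 0.71), led by the cytokine signalling inhibitor gene Socs1 (4.04) and by Trim21 (3.10), a ubiquitin ligase that acts on IRF proteins. Trim28 (-0.61), known to modify IRF7, and Nlrx1 (-0.02) were lowest.

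**Figure D4:**
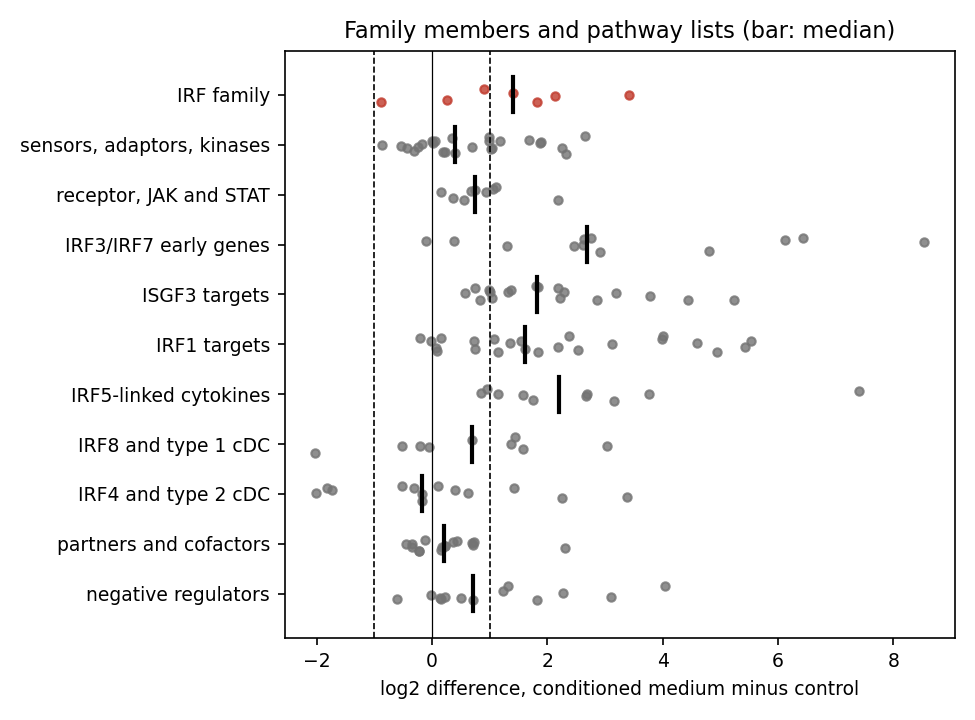
log2 difference, conditioned medium minus control, of the 7 family genes (red) and of the genes of the 10 pathway lists that passed the filter (grey; 1 point per gene, shifted vertically for visibility), with a black bar at each median and dashed lines at 2-fold. The medians run from -0.17 for the IRF4 and type 2 dendritic cell list to 2.70 for the IRF3 and IRF7 early genes, and that of the family is 1.41.

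Cell type markers also differed between the cultures, and their part in the family's values was not tested. Of 8 dendritic cell markers that passed the filter, 3 passed 2-fold upward and 2 downward. Beside this and each marker count below, 8.63% of all genes that passed the filter were past 2-fold upward and 6.84% downward. The upward markers were Dpp4 (log2 difference 2.25) and the class II chain genes H2-Aa (1.88) and H2-Ab1 (1.14). Downward were the CD11c gene Itgax (-1.03) and the growth factor receptor gene Flt3 (-1.23). The conditioned-medium value of Flt3 lay under the filter level, and against that level its difference was -0.28, short of 2-fold. Over all 10 measured genes of this list, the summed linear intensities were 4898 with conditioned medium and 2181 in the control. Most of both sums came from H2-Aa (10.9 with conditioned medium and 9.06 in the control) and H2-Ab1 (11.3 and 10.2). The median log2 difference was -0.09 over the 10 measured genes and 0.26 over the 8 that passed the filter. The lineage factor gene Zbtb46 was under the filter on both arrays (3.65 in each). Neutrophil markers were at least 2-fold lower for 10 of 14, with summed linear intensities of 3502 with conditioned medium and 11568 in the control. Of the 14 neutrophil differences, 3 were above 0, those of Cebpe (0.80), Ly6g (0.74) and Lcn2 (0.10). Macrophage and monocyte markers were at least 2-fold lower for 4 of 11 and higher for 1, with sums of 22410 with conditioned medium and 19083 in the control. Of the 11 differences, 8 were below 0, and the median was -0.18. The 3 above 0 were those of the bright genes Ly6c2 (1.18), Fcgr1 (0.98) and Cd68 (0.23). Csf1r, the CSF1 receptor gene, was among the lower (5.66 with conditioned medium and 8.58 in the control). Of 6 plasmacytoid dendritic cell markers that passed the filter 0 reached 2-fold, and of 6 B and plasma cell markers 1 passed it upward, Prdm1 (2.30-fold, or 1.85-fold against the filter level), and 2 downward, Cd79b (log2 difference -2.24) and Jchain (-2.10, with its conditioned-medium value under the filter). The T and NK cell markers held 0 of 5 past 2-fold. Of 9 mammary epithelial markers measured 3 passed the filter, the E-cadherin gene Cdh1 (log2 difference 3.79), Krt8 (-0.19) and the proliferation gene Mki67 (-1.47), and Epcam lay under it on both arrays (3.24 with conditioned medium and 2.67 in the control).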

How the data were processed

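Total RNA of 2 cultures, 1 per condition, was hybridised to Affymetrix arrays, 1 array each. The authors deposited 1 table of values per probe set, taken as log2 intensity from their range (0.02 to 13.50 with conditioned medium, -0.26 to 13.42 in the control); the log base is an inference. Affymetrix Expression Console is named in the submitters' processing notes; its version and the normalization are not given in the sources used, nor is the genome build. Once sorted, the values of the arrays were 0.015 apart on average, so a shift of most genes one way would not be seen.

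Probe sets were named through the platform annotation (23521 of 41345 with 1 symbol, 1814 with several, 16010 not listed). Each of 22180 genes was represented by its probe set with the highest mean. Genes were kept when the higher value reached 4.10, the median of all values, and counted by size at 2-fold. Named beside the 8 members were the 2 highest and 2 lowest genes of each of 10 pathway lists, and Stat2, Spi1, Spib, Batf, Batf3, Tbk1, Ikbke, Ifnb1 and Ifna4. Il27, the marker genes named from the marker lists, and the neighbours given at the end, were picked after their values were seen. With 2 arrays a pattern is a single difference, so no gene was named for a similar pattern. The members and lists were chosen with earlier results of these data known. No detection calls were used. The number of arrays limits the precision. Fold counts, the pooled SD and the median difference left after quantile or loess normalization were checked on simulated data. The medians of the lists were not. Python 3.11.15, numpy 2.4.6, pandas 2.3.3, statsmodels 0.14.6 and matplotlib 3.10.9 were used.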

Additional observations from a re-analysis of the deposited data

Results flagged for a closer look

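A signal lay in a probe set that the comparison did not use, because the annotation gives it to 2 genes. Probe set 17456692, annotated to both Irf5 and Tnpo3, had log2 intensities of 7.77 with conditioned medium and 7.10 in the control, a log2 difference of 0.67 (1.59-fold). How much of either value belongs to Irf5 cannot be told from it.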

How the results depend on the processing

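Each member's log2 difference was recomputed under 7 alternatives (quantile normalization, loess with a fraction of 0.3 and 3 iterations, centring on the median of kept genes, averaging a gene's probe sets, values floored at the filter level, no filter, and a filter at the 75th percentile). The first 3 could move every member. Flooring and the filters could move none, since both values of every member exceed the floor and every member passes both filters, and averaging could move Irf8 alone. All kept their sign and moved by less than the probe-set SD of 0.46, with ranges of 3.42 to 3.56 for Irf7, 2.09 to 2.24 for Irf1, 1.81 to 1.90 for Irf4, 0.88 to 1.01 for Irf2 and 0.25 to 0.33 for Irf3, and shifts of at most 0.094 for Irf9. With its probe sets averaged Irf8 had -0.56, and with its other probe set, a choice added after seeing the data, -0.23. The lowest value of Irf8 was -0.95. At 1.5-fold, 1 member was lower, 2274 kept genes were higher and 2458 lower; at 3-fold, 568 and 290. List counts also moved with the threshold: at 1.5-fold, 6 receptor and STAT genes and 4 partners were higher, and 1 upstream gene and 1 negative regulator lower; at 3-fold, 1 receptor and STAT gene and 1 type 1 dendritic cell gene were higher. Medians moved by 0.1 or more in 7 of 70 cases. With the 75th percentile filter, which keeps fewer genes, they were 0.99 (upstream), 2.18 (IRF1 targets), 2.68 (IRF5-linked) and 1.41 (type 1 dendritic cells). With loess they were 1.94 (ISGF3 targets) and 1.72 (IRF1 targets), and with floored values 0.16 (type 1 dendritic cells); the cause was not tested. No paired analysis was possible because each group has 1 array.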

Other observations

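The measured genes nearest to each family member on its chromosome were mostly under 2-fold, as were most genes that passed the filter. For each of the 7 measured members, the nearest protein-coding gene on either side that passed the filter was taken from the gene order of RefSeq assembly GRCm38.p6, which gave 14 neighbours. Of these, 8 were directly next to the member, and the other 6 lay 2 to 6 protein-coding genes away. Their median log2 difference, conditioned medium minus control, was -0.24. At least 2-fold higher were 2 of the 14 and lower 0, beside 8.63% and 6.84% of all genes that passed the filter. Sct, the secretin gene on one side of Irf7 and 2 genes away, had 5.90 with conditioned medium and 4.65 in the control (1.26), and Phrf1 on the other side of Irf7 differed by -0.07. Rnf31, which lies next to Irf9 and encodes the catalytic subunit of the linear ubiquitin ligase, had 6.31 with conditioned medium and 5.10 in the control (1.21), while Ipo4 on the other side differed by -0.36. Beside Irf1, Rad50 (-0.61) and Slc22a5 (-0.08) were not higher, and beside Irf4, Dusp22 (-0.66) and Exoc2 (0.40) lay on both sides of 0.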
